A study of Cardamine sp. SIM-2007 with 7 samples.

Results

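The comparison described here sets closed against open flower primordia of the wild crucifer Cardamine kokaiensis, related to Arabidopsis, in 4 of the 7 arrays of the study. Plants that form cleistogamous (CL) flowers, which stay closed and pollinate themselves, had been chilled for 28 days after germination. Plants that form chasmogamous (CH) flowers, which open, had been chilled for 14 days before germination, so flower type, length of chilling and stage at chilling changed together and cannot be told apart. The labels name no strain, age, transgene or chemical agent for either group. Each RNA sample came from 160 first-inflorescence primordia pooled in 1 tube, and it was hybridized to an Arabidopsis ATH1 array. The members were chosen by title, CL1 and CL2 against CH1 and CH2, and were compared as pairs of equal replicate number, CL1 with CH1 and CL2 with CH2. What a replicate number stands for is not said in the labels. Of the other 3 arrays, 2 held RNA of intermediate (INT) flowers, chilled for 14 days after germination, and 1 held genomic DNA of leaf. In pooled primordia, fewer cells of a type and less RNA per cell cannot be told apart.

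In Arabidopsis, flowers arise on the flanks of an inflorescence meristem, whose size is held by the signal peptide CLV3, and organ growth then depends on division followed by expansion, for which wall enzymes loosen the links between cellulose fibres. Flowering itself is timed by long exposure to cold, by day length and by the autonomous pathway, to which LD and FY belong. Cleistogamous species combine closed flowers, often with small petals, and open ones on the same plant or across seasons.

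Values are log2 intensities after quantile normalization of the 6 RNA arrays, and differences are CL minus CH on that scale, where 1 unit is a 2-fold change. Over 22746 probe sets, the median intensity of the 6 arrays before normalization lay between 260.7 and 301.7, and no value was 0. The 25S ribosomal RNA control, which was left out of all tests, was brighter on the array numbered 1 in each flower type. Its intensity was 1823 in CL1 and 2652 in CH1, against 392.9 in CL2 and 145.9 in CH2. INT1 and INT2 stood at 1961 and 629.6. The control was therefore lower in CL in the first pair and higher in CL in the second.

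The platform annotation named 5 of 26 marker genes of inflorescence and floral primordia, of which 3 had a mean above the median level. YAB3, a regulator of the lower side of lateral organs, stood at 9.99 and 10.005 in CL and 10.15 and 10.03 in CH. SEU, a corepressor in floral organ formation, stood at 9.59 and 9.07 in CL and 9.20 and 9.42 in CH, and JAG, which drives growth of lateral organs, at 8.16 and 7.71 in CL and 8.50 and 7.95 in CH. UFO, needed for petals and stamens to form, stood at 6.79 and 9.08 in CL and 8.78 and 9.26 in CH, with CL1 far below the other 3 arrays. CLV3 stood at 7.37 and 7.17 in CL and 6.45 and 6.03 in CH, dim on all 4 arrays and higher in both CL arrays. Both genes of leaf mesophyll that were named, PSAN and RCA, were among the brighter genes, with a mean over the 2 genes of 12.37 and 11.90 in CL and 11.88 and 12.004 in CH. RCA had opposed pair differences of 0.79 and -0.44, and those of PSAN were 0.19 and 0.23. The pair of named root markers, PYK10 and EXPA7, had means of 11.52 and 11.24 in CL and 10.35 and 10.70 in CH, higher in both CL arrays. PYK10, a beta-glucosidase of endoplasmic reticulum bodies in Arabidopsis seedlings and roots, stood at 14.004 and 14.13 in CL and 13.41 and 13.47 in CH. The 4 named markers of mature pollen had means between 7.80 and 7.95 on all 4 arrays, and 3 of the 4 were above the median level. They ranged from AGL104, at 6.17 and 5.15 in CL and 5.78 and 5.82 in CH, to AGL65, at 9.74 and 9.11 in CL and 9.64 and 9.19 in CH. Of 8 seed markers 0 were named. The part of leaf or root material in the results below was not tested.

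Taken as pairs, the CL and CH arrays gave no probe set that passed the adjusted threshold. limma with the replicate number as a block called 0 of 22746 probe sets at an adjusted p under 0.05 (0%), and the lowest adjusted p was 0.874. At an unadjusted p under 0.05 it gave 894 probe sets (3.93%), of which 469 were higher in CL (2.06%) and 425 lower (1.87%), where 5% would be 1137.3. The fit without pairs gave 805, and 710 probe sets were in both counts, 79.4% of the paired and 88.2% of the unpaired ones. A paired fit on only the 4 CL and CH arrays gave 1326. The count thus fell below or above 5% depending on whether the INT arrays were in the fit. The unadjusted 95% interval reached 0.89 log2 units to each side for a median probe set, so a smaller difference was not detectable there with 2 pairs. The adjusted threshold is stricter, so differences above 0.89 could also be missed.

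The lowest p of all belonged to a probe set to which the annotation gave either no gene or several. Its log2 intensity was 9.18 and 8.93 in CL and 11.10 and 10.88 in CH, with 9.91 and 10.14 in INT. Both CL arrays lay below both CH arrays, by 1.93 units in the first pair and 1.94 in the second, and the INT arrays lay between them. The mean difference was -1.94 with a 95% interval from -2.44 to -1.43 and an adjusted p in limma of 0.874.

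The pairs share no array, so each can be read as a repeat of the other. Across probe sets, which do not replicate each other independently, the differences of the first pair correlated with those of the second at r = 0.024, and 52.5% of probe sets had the same direction in both. A difference of at least 1 log2 unit in the same direction in both pairs was found for 343 probe sets, 198 higher in CL (0.87%) and 145 lower (0.637%). Opposite directions at that size were found for 358, so large differences agreed about as often as they disagreed. With crossed numbers, CL1 with CH2 and CL2 with CH1, the counts were 299 in the same and 745 in opposite directions, and r was -0.223. The replicate differences of CL and CH, array 1 minus array 2, correlated at 0.246, which is the shared part that pairing by number removes. Those of INT correlated at -0.047 with CL and -0.051 with CH.

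**Figure D1:**
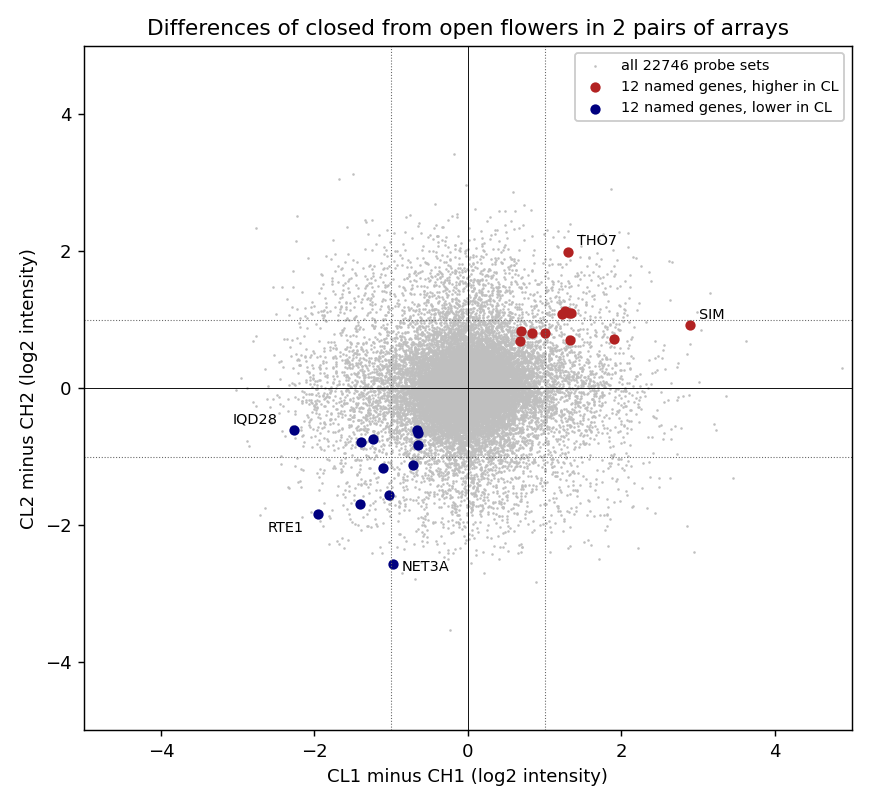
Difference of CL from CH in the second pair (vertical axis, log2 intensity) against the first pair (horizontal axis, log2 intensity) for 22746 probe sets in grey. Red and blue points are the 12 named genes with a symbol in each direction, dotted lines mark 1 log2 unit, and the grey cloud shows no slope (r = 0.024).

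Agreement between the pairs differed with RNA level. In the 25% of probe sets with the highest mean level, above 9.32, r was 0.169 and 8 probe sets differed by at least 1 unit in the same direction against 2 in opposite directions. In the lowest 25%, below 6.91, r was 0.0091 and the counts were 184 and 192. The bins between them, in rising order, had r of 0.0011 and 0.044, with 136 against 150 and 15 against 14 probe sets. Organelle genes held 53 of the 5687 probe sets in the highest bin, and r without them was 0.169. By genomic DNA intensity, r was 0.074 in the highest 25% and at most 0.014 in the other 3. The 343 probe sets that repeated at 1 unit were mostly dim: 6.71% were above the median RNA level and 38.5% above the median genomic DNA intensity.

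**Figure D2:**
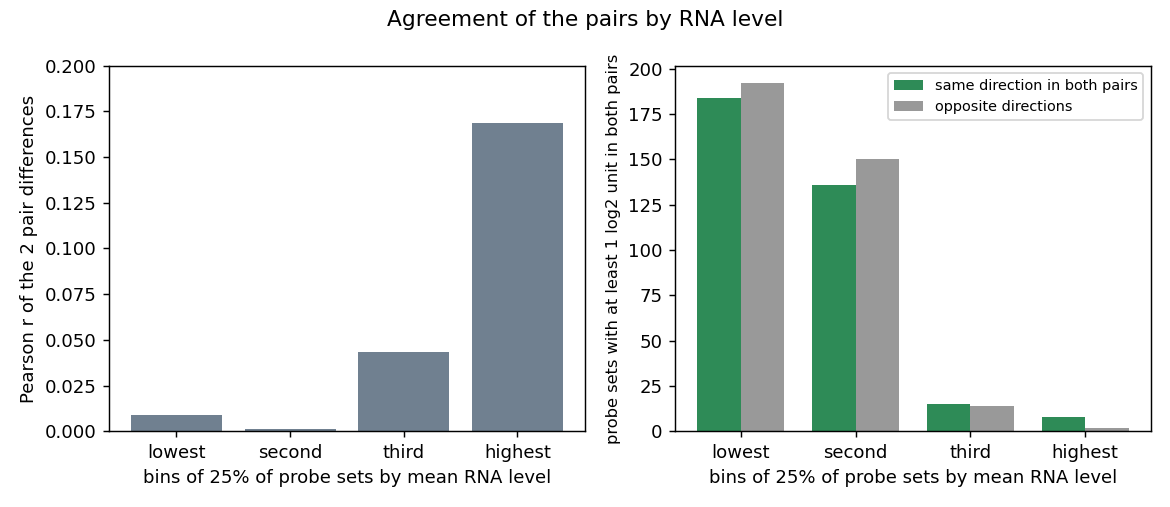
Pearson r between the 2 pair differences (left, vertical axis) and number of probe sets with at least 1 log2 unit in both pairs (right, vertical axis), for 22746 probe sets in 4 bins of 25% each ordered by mean RNA level (horizontal axes). Green bars count the same direction and grey bars opposite directions, and green exceeds grey most in the highest bin, by 8 to 2.

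Of those 8 bright probe sets, 4 had exactly 1 gene in the annotation: Cpn60beta2, XTH16 and IQD22, described below, and AT1G01240, which was picked out once its values were known. The log2 intensity of AT1G01240 was 9.12 and 10.34 in CL and 10.54 and 11.57 in CH. Its CL2 value came close to CH1, and both pairs gave a lower value in CL, by 1.42 and 1.22 units. The others, with either no gene or several in the annotation, were that with the lowest p, given above, and 3 that were higher in CL. The brightest of these stood at 12.63 and 11.93 in CL and 10.83 and 10.75 in CH, with a mean difference of 1.49 and an interval from 1.00 to 1.97.

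Genes with a symbol were ranked by the smaller of their 2 pair differences, and the first 12 in each direction are described as the most repeatable differences, chosen by size and therefore given without support from a test. In each direction 4 genes with only a locus code were added by the same ranking. Genomic DNA intensity was above its median for 5 of the 16 genes higher in CL and 8 of the 16 lower ones. It was lowest for AT1G53070 (3.9 percentile), INP1 (4.1), PEX4 (4.3) and NET3A (7.2). In limma 0 of these 32 genes passed over all probe sets, each with an adjusted p of 0.9999. In 14 of the 16 genes higher in CL both CL arrays lay above both CH arrays (13.9% of all probe sets did), and in 13 of the 16 lower genes both lay below (14.8%). The ranking itself favours such genes. The rule asked for a mean above the median level of 8.22 in 1 group only. Among the genes higher in CL, the CH mean lay below that level for THO7, RBL, SIM, OTP86, TET5 and the locus codes. Among the lower genes, the CL mean lay below it for all but IQD22 and CKS.

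XTH16, a xyloglucan endotransglucosylase that cuts and rejoins wall polymers, stood at 12.17 and 10.15 in CL and 10.90 and 9.02 in CH. Array 1 was brighter than array 2 by 2.02 units in CL and 1.89 in CH, so the groups overlap, while the pair differences were 1.26 and 1.13. Its mean difference was 1.20 with a 95% interval from 0.10 to 2.29; limma gave an unadjusted p of 0.0362 with pairs and 0.140 without. EXO, the EXORDIUM protein of brassinosteroid-dependent cell expansion, stood at 9.72 and 9.28 in CL and 8.89 and 8.47 in CH, with pair differences of 0.83 and 0.81. The 95% interval of its mean difference ran from -0.42 to 2.06, and its INT arrays stood at 7.50 and 9.14. TUB5, a beta-tubulin of microtubules, had the closest pairs of the 12 genes, at 10.02 and 10.01 in CL and 9.34 and 9.33 in CH. Its differences were 0.67 and 0.68, which makes a 1.6-fold higher intensity in CL with an interval from 0.20 to 1.16 on the log2 scale.

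SIM, an inhibitor of cyclin-dependent kinases that turns dividing cells to endoreduplication in Arabidopsis trichomes, stood at 8.65 and 8.65 in CL and 5.76 and 7.72 in CH. The CL arrays were alike and the CH arrays 1.97 units apart, which left pair differences of 2.90 and 0.93. INO, a YABBY factor needed for the outer coat of the ovule, stood at 9.84 and 9.003 in CL and 8.83 and 8.19 in CH and differed by 1.01 and 0.81. TET5, a tetraspanin of the cell membrane, stood at 8.19 and 8.67 in CL and 6.85 and 7.96 in CH. CL lay above CH in both pairs of these 3 genes, though for INO the lower CL array was only 0.17 units above the higher CH array.

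Cpn60beta2, a subunit of the chloroplast chaperonin, stood at 12.35 and 11.996 in CL and 11.000 and 10.90 in CH, with pair differences of 1.35 and 1.09. It was 2.33-fold brighter in CL, with an interval from 0.81 to 1.63 log2 units, and had the lowest p of all probe sets with 1 gene. THO7, a subunit of the complex that packs messenger RNA for export, stood at 8.51 and 8.29 in CL and 7.20 and 6.30 in CH, the widest gap of the 12 genes by the smaller difference (1.30 and 1.99). The annotation gives that symbol to 2 genes, and the probe set of the other had pair differences of -0.35 and 0.81, in opposite directions. OTP86, which edits a plastid RNA, stood at 8.15 and 8.34 in CL and 6.25 and 7.63 in CH, and PEX4, a ubiquitin-conjugating enzyme of peroxisomes, at 10.21 and 9.36 in CL and 9.51 and 8.53 in CH. In PEX4 the groups overlap, and its pair differences were 0.69 and 0.83.

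JAL22, a jacalin-related lectin, stood at 9.80 and 10.06 in CL and 8.49 and 8.97 in CH, with both CL arrays above both CH arrays and pair differences of 1.32 and 1.09. RBL stood at 8.43 and 8.91 in CL and 7.20 and 7.82 in CH; its symbol, too, belongs to 2 genes in the annotation, and the other probe set differed by 2.23 and -0.17. By the smaller pair difference, the 4 locus codes exceeded the genes with a symbol: AT1G11470 differed by 2.15 and 1.91, AT2G40760 by 2.20 and 1.91, AT5G37710 by 2.25 and 1.79 and AT3G27210 by 1.91 and 1.79. AT2G40760 stood at 9.18 and 8.65 in CL and 6.98 and 6.74 in CH, with genomic DNA intensity at the 93.1 percentile of all probe sets.

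Among the genes lower in CL, RTE1, which promotes signalling of the ethylene receptor ETR1, had the widest repeat. It stood at 7.07 and 7.03 in CL and 9.03 and 8.87 in CH, with pair differences of -1.96 and -1.83. Like most of the lower genes, it had a mean above the median level of 8.22, as the rule for named genes asks of 1 group, only in CH. The intensity in CL was 0.269 times that in CH, with an interval from -2.92 to -0.87 log2 units. EIN3, the central transcription factor of the pathway, was the only other ethylene gene named, and its differences were -0.35 and 0.11. The INT arrays of RTE1 stood at 8.40 and 7.64, between the groups.

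SEC5A, a subunit of the exocyst that tethers secretory vesicles to the cell membrane, stood at 7.39 and 7.03 in CL and 8.79 and 8.72 in CH. NET3A, a plant protein that binds actin to membranes, stood at 7.26 and 6.69 in CL and 8.24 and 9.26 in CH, and the second pair difference exceeded the first (-0.98 and -2.57). PRA1.B6, a receptor for prenylated Rab proteins, stood at 8.10 and 7.10 in CL and 8.82 and 8.23 in CH. SEC5A and NET3A had both CL arrays below both CH arrays, with unadjusted p in limma of 0.031 and 0.014, and PRA1.B6 did too, with 0.134. IQD22 and IQD28, which bind calmodulin and microtubules, differed by -1.11 and -1.16 and by -2.26 and -0.62. IQD22 stood at 9.13 and 8.51 in CL and 10.24 and 9.68 in CH, while IQD28 had a CL1 value of 6.04 far below its CL2 value of 8.38, so that its groups overlap.

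BUB3.2, a member of the spindle checkpoint, stood at 7.75 and 8.31 in CL and 9.14 and 9.10 in CH, with CL below CH in both pairs (-1.39 and -0.79). SIZ1, a ligase that attaches SUMO and acts in cold and phosphate responses, stood at 7.23 and 8.90 in CL and 8.46 and 9.65 in CH; its CL2 array lay above CH1, so the groups overlap. A further probe set of SIZ1 differed by -0.46 and -0.14. PUB15, a U-box ubiquitin ligase, stood at 7.88 and 7.20 in CL and 8.53 and 8.03 in CH. INP1, which is needed to place the apertures of pollen in Arabidopsis, stood at 7.12 and 6.88 in CL and 8.14 and 8.44 in CH, and its genomic DNA intensity was at the 4.1 percentile. CKS, which activates a sugar of the pectin rhamnogalacturonan II, was the brightest of the 12 and differed by nearly the same amount in both pairs, at 10.29 and 10.70 in CL and 10.94 and 11.36 in CH, with a mean difference of -0.65 and an interval from -1.12 to -0.18.

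LD, a nuclear protein of the autonomous flowering pathway, stood at 7.61 and 8.31 in CL and 8.27 and 8.93 in CH. The CL2 array reached above CH1, so the groups overlap, and the pair differences were -0.66 and -0.62. Among locus codes, AT1G80180 differed by -2.37 and -1.99, AT1G53070 by -2.04 and -1.81, AT3G49770 by -1.71 and -1.56 and AT3G59190 by -1.51 and -1.96. AT1G80180 stood at 6.004 and 6.21 in CL and 8.37 and 8.20 in CH, and its genomic DNA intensity was at the 96.2 percentile of all probe sets.

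**Figure D3:**
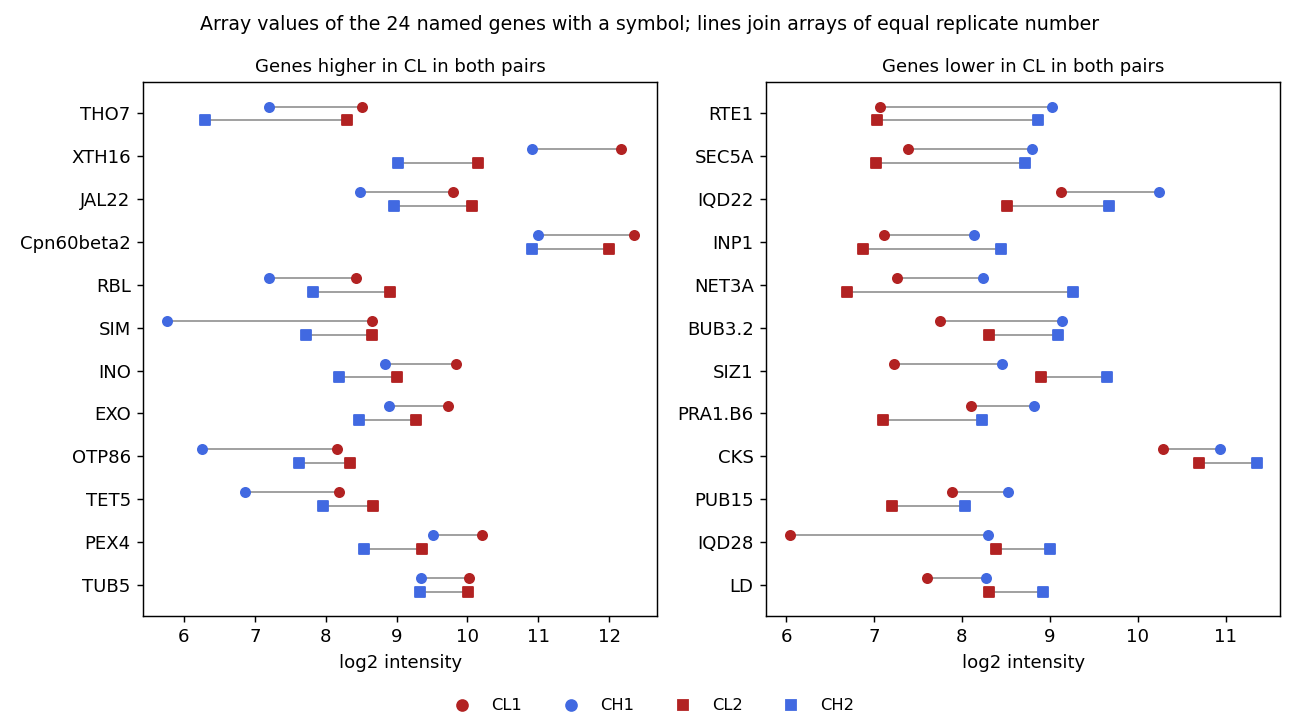
Log2 intensity (horizontal axes) of the 24 named genes with a symbol on the CL (red) and CH (blue) arrays. Circles are arrays numbered 1 and squares arrays numbered 2, lines join a pair, and every line runs in the direction of its panel by at least 0.62 units.

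The INT arrays were not used to choose these genes. Their mean lay between the CL and CH means in 10 of the 16 genes higher in CL and 12 of the 16 lower ones. Over the 343 probe sets that repeated at 1 unit the share was 75.5%, against 30.2% of all probe sets, but a wide gap between CL and CH leaves more room between them. INT lay nearer to CL than to CH in 51.6% of the 343, against 50.4% of all. Cpn60beta2 stood at 11.14 and 10.97 in INT and XTH16 at 9.32 and 9.34, near or within their CH values, while TUB5 stood at 10.01 and 9.89, near its CL values.

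The fixed gene lists were read pair by pair, as counts and medians beside those of all probe sets. Of 28 lists, 20 had at least 3 members named by the annotation, and in 12 of these the median had the same direction in both pairs. Over all probe sets 25.5% were higher in CL in both pairs and 27% lower, and the median difference was -0.01. In these 20 lists 0 members passed in limma.

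Genes of wall loosening gave 3 of the 4 members of these 20 lists that differed by at least 1 log2 unit in the same direction in both pairs. Of all probe sets 0.87% differed so with CL higher and 0.637% with CL lower. XTH18 stood at 8.11 and 7.41 in CL and 6.16 and 5.55 in CH, with differences of 1.95 and 1.87. EXLA1, an expansin-like protein, stood at 7.62 and 7.56 in CL and 6.19 and 5.90 in CH, with differences of 1.43 and 1.66. Both genes were in the lowest 25% of probe sets by mean level, and the genomic DNA intensity of EXLA1 was at the 7.9 percentile. Like XTH16, given above, they had CL values over 1 unit above the paired CH values. EXPA7, an expansin of root hairs in Arabidopsis, differed by 1.75 and 0.42, and EXPA8 by 1.74 and 0.36. Over the whole list, 11 of 27 members were higher in both pairs, 7 lower and 9 opposed, and the median was 0.01. Among the 9 xyloglucan endotransglucosylases 4 were higher in both pairs and 2 lower, and among 18 expansins and expansin-like genes 7 were higher and 5 lower. At an unadjusted p under 0.05 there were 4 members, all higher in CL (2.06% of all probe sets were). Both CL arrays lay above both CH arrays in 8 of 27 and below in 1, against 13.9% and 14.8% of all probe sets.

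**Figure D4:**
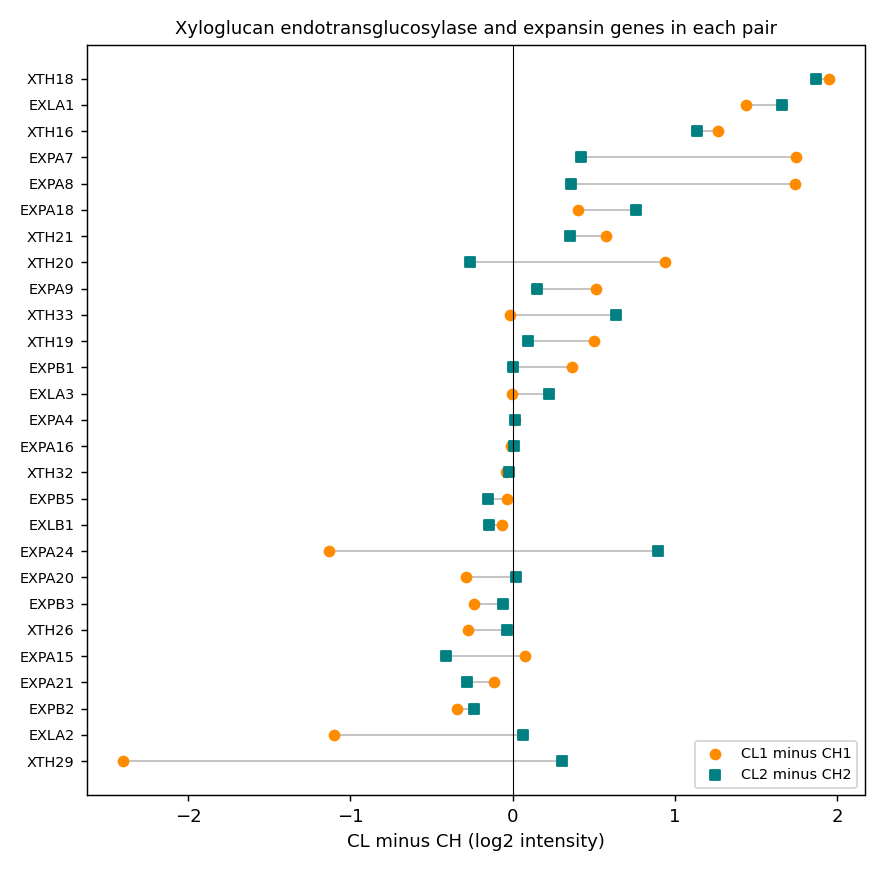
Difference of CL from CH (horizontal axis, log2 intensity) in the first pair (orange circles) and the second pair (teal squares) for the 27 genes of wall loosening, ordered by their mean. XTH18, EXLA1 and XTH16 exceed 1 unit in both pairs, while most of the list lies near 0 or has its pairs on both sides of it.

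Synthesis and modification of other wall polymers had no member at 1 unit in the same direction in both pairs, where 1.51% of all probe sets were found. CSLA03, a glucomannan synthase, differed by 0.60 and 0.39, COB, which orients cellulose fibres, by 0.19 and 0.58, and CSLD2, a cellulose synthase-like protein of tip growth, by -0.27 and -0.57. Of these 9 synthesis genes 4 were higher in CL in both pairs and 1 lower, with a median of 0.18. The 4 genes of pectin modification included ATPMEPCRD, a pectin methylesterase, at 7.45 and 7.83 in CL and 5.66 and 7.40 in CH. Its CH arrays lay 1.74 units apart, and its pair differences were 1.80 and 0.43. ATPMEPCRB differed by 0.79 and 0.51 and PME61 by -0.03 and -0.14.

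Plastid-encoded genes had the highest medians of the longer lists, and the size came from the second pair. Over 45 genes of photosynthesis the median difference was 0.15 in the first pair and 0.58 in the second. Over 20 genes of the plastid ribosome and polymerase it was 0.11 and 0.51. In the same pairs the 25S control was lower and then higher in CL; its part in the plastid values was not tested. Of the 45 photosynthesis genes 20 were higher in CL in both pairs, 3 lower and 21 opposed, with psaB at no difference in 1 pair, and of the other 20 genes 12 were higher, 2 lower and 6 opposed. Both CL arrays lay above both CH arrays in 7 of the 45 and below in 1. For the other 20 genes these counts were 5 and 0, and the shares of all probe sets were 13.9% and 14.8%. psaJ, a small subunit of photosystem I, stood at 12.83 and 12.96 in CL and 12.17 and 12.21 in CH and differed by 0.66 and 0.75. psbT, a subunit of photosystem II, differed by 0.59 and 0.64, and psbB, which binds chlorophyll in its core antenna, by 0.59 and 1.35. In psbT and psbB the groups overlap. rpl33, a protein of the large ribosomal subunit, differed by 0.51 and 0.63, and rps4, of the small subunit, by 0.46 and 2.02, most of it in the second pair.

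Nuclear genes of photosynthesis had smaller differences. PSAN, a subunit of photosystem I, stood at 13.41 and 12.75 in CL and 13.22 and 12.52 in CH, with array 1 above array 2 in both flower types and differences of 0.19 and 0.23. PSAE-1 differed by 0.12 and 0.14 and PSBW, a subunit of photosystem II, by -0.14 and -0.32. Of 10 genes 3 were higher in both pairs and 2 lower. In the mitochondrial genome 4 of 15 genes were higher and 2 lower, and 9 were opposed; cox2, a subunit of cytochrome oxidase, differed by 0.87 and 0.37 and ccb206, of cytochrome c assembly, by -0.54 and -0.43.

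In the chaperone list, Hsp70-2 stood at 13.17 and 12.21 in CL and 11.61 and 11.85 in CH, and the difference of the first pair exceeded that of the second (1.56 and 0.36). It and Cpn60beta2 were the 2 of 5 members at an unadjusted p under 0.05, both higher in CL (2.06% of all probe sets were). The close relatives Cpn60beta3 and Cpn60beta4 differed by 0.14 and 0.06 and by -0.11 and -0.16. CLPB2, a disaggregase of the HSP100 family, differed by -0.32 and -0.29.

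The cell cycle list held 8 genes, with SIM higher and BUB3.2 lower as given above. CDC27a, a subunit of the anaphase-promoting complex, stood at 8.12 and 7.69 in CL and 7.53 and 6.65 in CH. CL lay above CH in both pairs, by 0.59 and 1.04. Of the Aurora kinases, which act in mitosis, AUR1 differed by -0.03 and -0.27, AUR2 by 0.44 and 0.21 and AUR3 by -0.34 and -0.10. BUB3.1, the paralog of BUB3.2, differed by -0.21 and -0.28. Of the 8 genes 3 were higher in both pairs and 4 lower. Histones, which are made during DNA replication, were higher in both pairs for 3 of 7 genes, with HTB1 at 0.30 and 0.26 and HTB2 at 0.28 and 0.17, and HIS1-3, a stress-induced linker histone, at -0.71 and -0.37.

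Among 14 genes of floral meristems and organs, 7 were lower in CL in both pairs, 2 higher and 5 opposed. CLV3, the signal that limits the stem cells of the meristem, was higher in both CL arrays, by 0.91 and 1.14, with a mean level in the lowest 25% of probe sets. ULT1, which restricts meristem size, differed by 0.42 and 0.60, and its CL2 value lay below CH1. JAG differed by -0.34 and -0.24. UFO showed differences of -1.99 and -0.18, so nearly all of its difference came from a CL1 value of 6.79. ROXY1, a glutaredoxin of petal and anther formation, differed by -0.22 and -1.81, with most of it in the second pair.

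Of 6 flowering-time genes 3 were lower in CL in both pairs, 1 higher and 2 opposed, with a median of -0.24. LD was given above. FY, which acts with FCA in processing RNA in the same autonomous pathway, stood at 10.60 and 10.27 in CL and 10.82 and 10.84 in CH. Both CL arrays lay below both CH arrays, with differences of -0.21 and -0.57. FD, the partner of the florigen FT, had array 1 above array 2 in both flower types, at 9.34 and 8.66 in CL and 9.10 and 8.40 in CH, and differed by 0.24 and 0.26. GI, a clock gene of the day-length response, had opposed differences of 0.34 and -0.24.

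Anther and meiosis genes were lower in both pairs for 4 of 10 members, higher for 1 and opposed for 5. SPO11-2, which makes the breaks that start recombination, stood at 8.67 and 8.48 in CL and 9.29 and 8.88 in CH and differed by -0.62 and -0.39. Its relative ATSPO11-1 went the other way, with differences of 1.46 and 0.30 and a CH1 value of 6.598 far below CH2. AMS, a regulator of the tapetum, had opposed differences of 1.25 and -0.62.

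Of 17 sugar transporters 8 were higher in CL in both pairs, 1 lower and 8 opposed. All 8 were among the 14 measured SWEET genes, which carry sugars across membranes. SWEET16, a transporter of the vacuole, stood at 9.11 and 8.88 in CL and 8.35 and 8.34 in CH, with CL above CH in both pairs (0.76 and 0.54). SWEET11, a sucrose exporter, differed by 0.35 and 0.34, with its arrays numbered 1 brighter than those numbered 2. SWEET9, the transporter of nectaries, differed by -0.23 and -0.33. The list median was 0.26 in the first pair and 0.14 in the second. In limma 0 members had an unadjusted p under 0.05, against 3.93% of all probe sets. Both CL arrays lay above both CH arrays in 3 of 17 and below in 0, against 13.9% and 14.8% of all probe sets.

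Of 15 auxin genes 4 were higher in both pairs, 4 lower and 7 opposed (46.7%, against 47.3% of all probe sets). GH3.3, which conjugates auxin to amino acids, stood at 5.83 and 5.76 in CL and 7.71 and 6.49 in CH, with both CL arrays below both CH arrays and differences of -1.88 and -0.72, with a mean level in the lowest 25%. The genomic DNA intensity of GH3.3 was at the 5.9 percentile. IAA30, an auxin response repressor, differed by -0.52 and -0.46, and GH3.17 by 0.42 and 0.38. Among 5 gibberellin genes 0 were higher in both pairs and 2 lower, the receptor genes GID1A (-0.36 and -0.16) and GID1B (-0.23 and -0.88), while GID1C differed by 0.04 and -0.08. GID1B had a genomic DNA intensity at the 6.0 percentile. Both named jasmonate genes were opposed: JMT, which methylates jasmonate, differed by 1.16 and -0.04, and OPCL1, an enzyme of its synthesis, by -0.37 and 0.51.

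Genes of the cold and dehydration response, measured in plants with different chilling, were higher in both pairs for 2 of 12 members, lower for 4 and opposed for 6. DI19, a drought-induced protein with zinc fingers, stood at 10.90 and 10.65 in CL and 11.48 and 11.64 in CH, with both CL arrays below both CH arrays. Its differences were -0.58 and -0.99, with a mean of -0.78, an interval from -1.23 to -0.34 and an unadjusted p in limma of 0.0041. COR15B, a cold-induced plastid protein, differed by 0.60 and 0.28, and its relative COR15A by -1.07 and 2.02, in opposite directions. LEA18 differed by -1.15 and -0.26 at dim levels.

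Among WRKY factors, cytochrome P450 and flavonoid genes, some members had a wide difference that did not repeat. CYP71B26 differed by 1.93 and -1.36, CYP71B24 by -1.55 and 1.59, CYP78A9 by 0.06 and -1.77, WRKY47 by 1.08 and -0.06 and the flavonoid gene BAN by 0.29 and -0.93 (these 5 members were picked for that once their values were known). WRKY20 differed by -0.57 and -0.59, WRKY22 by -0.47 and -0.15 and WRKY53 by -0.06 and -0.88, and 3 of 6 WRKY factors were lower in both pairs against 1 higher. Cytochrome P450 genes had 5 of 24 higher, 4 lower and 15 opposed, with CYP71B27 at 0.47 and 0.49, CYP71B28 at -0.32 and -0.47 and CYP71B38 at 0.34 and 0.28. Of 4 flavonoid genes, UF3GT differed by -0.18 and -0.45 and DFR by 0.05 and 0.16.

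**Figure D5:**
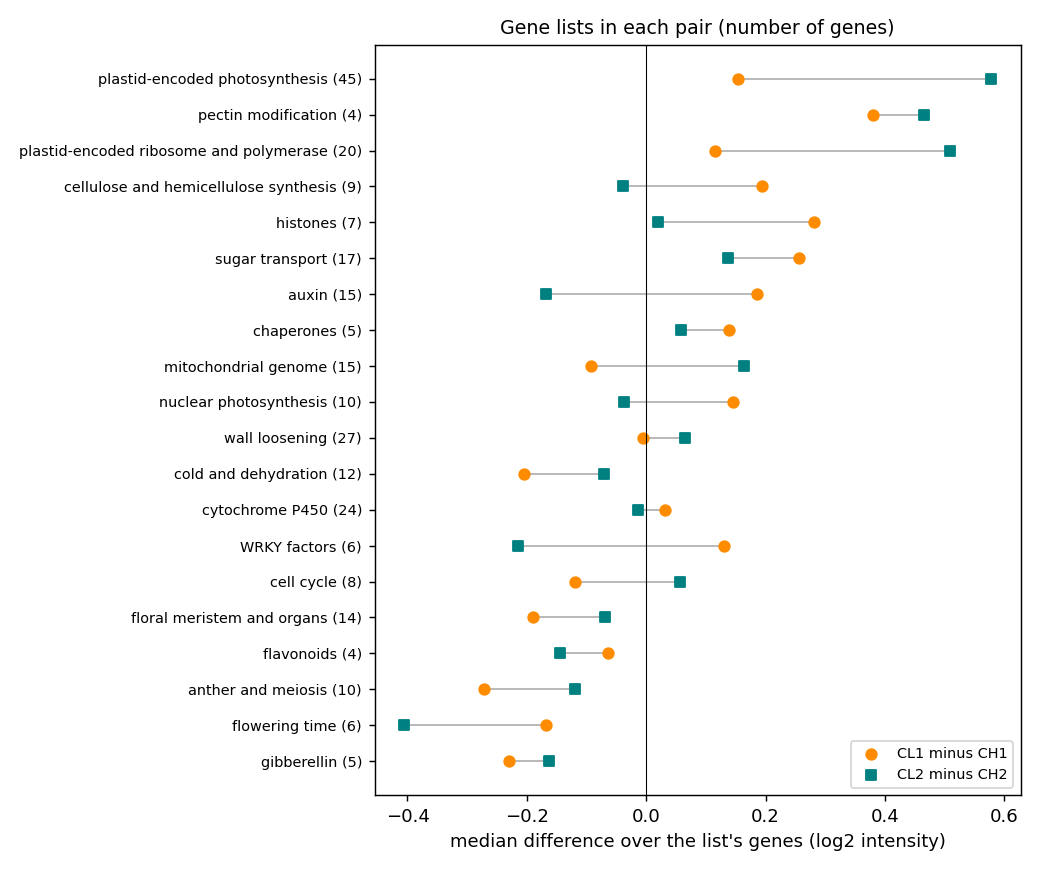
Median difference of CL from CH (horizontal axis, log2 intensity) over the genes of each of the 20 lists in the first pair (orange circles) and the second pair (teal squares), with the number of genes in brackets. In 12 lists both medians lie on one side of 0, and the plastid lists have the widest positive values, 0.58 and 0.51 in the second pair.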

How the data were processed

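The authors deposited intensity values per probe set for 7 Affymetrix ATH1 arrays. Per the labels, these were calibrated by hybridization of genomic DNA after Hammond and colleagues; neither summary software nor DNA threshold is stated in the labels. From these values, the 64 control probe sets were left out (22746 remained), log2(intensity + 28.2) was taken, with 28.2 as the RNA median divided by 10, and the 6 RNA arrays were quantile normalized. The offset makes differences of dim genes too small.

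CL was compared with CH in limma 3.58.1 (R 4.3.3) on all 6 RNA arrays, with flower type, replicate number as a block and eBayes with a trend, two-sided, Benjamini-Hochberg adjusted over all probe sets. The fit was also run on simulated data with independent noise and no replicate effect, so that run cannot show how the block behaves on these arrays. The check of the pairing was the correlation of replicate differences (CL and CH 0.246, with INT -0.047 and -0.051); the labels do not say that a number marks a shared batch, so p-values measure only the spread between these samples. Arrays have no read depth, and their number limits the precision.

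By the platform annotation, 13513 probe sets had 1 gene, 503 several and 8794 none. In lists a gene was read from its brightest probe set; of 28 lists, 8 had fewer than 3 named members. Genes were named by the smaller of their 2 absolute pair differences, with the same direction in both pairs. Outside the lists the rule also asked for a group mean above the median, and within each list it named at most 3. Tissue markers were named whatever their values. Relatives of a named gene were added after the values were seen. Other list members, among them EXPA8, GI, AMS, JMT, OPCL1, EIN3 and the Aurora kinases, were also named outside this rule, with the values known. The arrays, gene lists and rules were chosen with earlier results of these data known. Plots were made in matplotlib 3.10.9 (Python 3.11.15).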

Additional observations from a re-analysis of the deposited data

How the results depend on the processing

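Under every alternative run, limma called 0 probe sets past the adjusted threshold: no replicate block, only the 4 CL and CH arrays, median scaling, values as deposited, offsets of 1 and of the median, both filters, eBayes without the trend, and leaving out each of the 6 RNA arrays (0 to 0). Without the replicate block the lowest adjusted p was 0.487 and 805 probe sets had an unadjusted p under 0.05; over all alternatives on 22746 probe sets that count ran from 718 without CH replicate 1 to 1338 without INT replicate 2, against 894 as reported. The unadjusted counts under the alternatives were chosen after seeing the data. The lowest adjusted p of any alternative was 0.179, without CL replicate 1.

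The count of probe sets that repeated at 1 log2 unit depended on the offset. It was 343 as reported, 772 with an offset of 1 and 3 with an offset of the median, and 23 and 132 when only probe sets above the median RNA level or above the median genomic DNA intensity were kept, which tests fewer probe sets. Of the 343, 57.7% were higher in CL, against 73.9% of the 23 and 33.3% of the 3. Opposite directions numbered 736, 3, 16 and 137 in these settings. The correlation of the pairs was 0.070 with the offset of the median, 0.090 above the median RNA level, 0.041 above the median genomic DNA intensity, 0.048 as a rank correlation and -0.223 with crossed numbers; the cause was not tested. The direction of the 85 genes named by the rule is largely fixed by their choice, and leaving out the block cannot change their mean. Of these, 62 moved by over 1.5 times under some scaling or offset, as RTE1 did, from -2.14 to -0.95, while Cpn60beta2 ranged from 1.12 to 1.30. Under scalings, offsets and filters the median of 15 of 20 lists kept its sign, and those of wall loosening, cell cycle, cold and dehydration, cytochrome P450 and floral meristem and organs did not. With 1 pair left out, 5 more changed sign: mitochondrial genome, to -0.09, nuclear photosynthesis, to -0.04, cellulose and hemicellulose synthesis, to -0.04, auxin, to -0.17, and WRKY factors, to 0.13. The medians of both pairs shared a direction in 12 to 15 of 20 lists under scalings and offsets, in 12 of 17 above the median RNA level and in 12 of 18 above the median genomic DNA intensity.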
